A study of Homo sapiens with 2 samples.

Results

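The tRNA genes of chromosomes 1 and 6 were examined for peaks of PRMT6 and PARP1, 2 nuclear enzymes, in MDA-MB-231 cells. The genes were chosen as all RefSeq records of biotype tRNA on these chromosomes in the GRCh38 build. The choice gave 253 of the 443 nuclear tRNA records. Of these, 14 carry positions of scaffolds or patches and were not compared, which left 239 genes with a place on the chromosome, 85 on chromosome 1 and 154 on chromosome 6. A further 190 placed genes on the other nuclear chromosomes served for comparison.

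The study asked which genes PRMT6, an arginine methyltransferase, and PARP1, an enzyme that attaches ADP-ribose to proteins, occupy in MDA-MB-231, a human breast cancer cell line of the triple-negative type. Untreated cells were profiled with 1 library per antibody, both antibodies from Cell Signaling Technology. Each library was deposited as a list of peaks, the stretches of the genome where fragments exceeded the background, each scored by the −log10 of its p-value from peak calling. The PRMT6 list held 9080 peaks and the PARP1 list 11651, of which 1387 and 1751 lay on chromosomes 1 and 6, and read depth is not part of the lists. The lists hold no expression values, so the identity of the line could not be checked against marker genes. With 1 library per antibody there is no replicate check and no test was made. Every value describes these libraries, and each share carries a 95% exact binomial (Clopper-Pearson) interval that covers counting error only and treats genes as independent, although neighbouring genes often shared a peak.

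RNA polymerase III transcribes tRNA genes from a promoter that lies inside the gene. TFIIIC binds its A box and B box and places TFIIIB just upstream, and a run of T bases after the gene ends transcription. Human tRNA genes exist in many copies. The symbol gives the amino acid and the anticodon, and genes with the same number after the anticodon make an identical mature tRNA (an isodecoder). The TRX symbols mark initiator methionine tRNA, which starts translation, and the TRM symbols mark the elongator form. The largest human group of tRNA genes lies on the short arm of chromosome 6 beside histone genes and the major histocompatibility complex.

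The sequence of 7 of the 239 genes lay whole in the RefSeq promoter windows of GRCh38.p14. They are shown to compare genes with and without a peak, 5′ to 3′ on the coding strand, with the B box in capitals. The B box was searched as GTTCNANNC, where N is any base, which also stands in 7.48% of all 35116 windows on either strand. The gene records carry no strand, so the strand that held the motif was taken as the coding strand. TRI-TAT2-2 (chr6:27020346-27020439, plus strand) lay under a PRMT6 peak. TRI-AAT8-1 (chr6:27668583-27668656, plus strand) lay under a PARP1 peak. No peak of either list lay within 1 kb of the other 5, TRH-GTG1-3 (chr1:148281365-148281436, plus strand), TRA-AGC2-2 (chr6:28863685-28863756, minus strand), TRL-AAG2-2 (chr6:28943622-28943703, minus strand), TRN-GTT4-1 (chr1:16889677-16889750, plus strand) and TRN-GTT6-1 (chr1:143735920-143735993, minus strand).
TRI-TAT2-2: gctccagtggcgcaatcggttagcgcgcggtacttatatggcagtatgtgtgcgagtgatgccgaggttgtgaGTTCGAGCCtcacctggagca
TRI-AAT8-1: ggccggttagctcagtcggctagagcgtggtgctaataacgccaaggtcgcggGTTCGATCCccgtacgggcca
TRH-GTG1-3: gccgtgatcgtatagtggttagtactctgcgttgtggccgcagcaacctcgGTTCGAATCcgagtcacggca
TRA-AGC2-2: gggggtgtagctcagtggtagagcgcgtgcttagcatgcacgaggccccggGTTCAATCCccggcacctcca
TRL-AAG2-2: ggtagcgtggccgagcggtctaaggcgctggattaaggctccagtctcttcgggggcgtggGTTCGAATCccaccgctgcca
TRN-GTT4-1: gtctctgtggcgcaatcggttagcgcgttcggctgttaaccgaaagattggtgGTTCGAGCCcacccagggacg
TRN-GTT6-1: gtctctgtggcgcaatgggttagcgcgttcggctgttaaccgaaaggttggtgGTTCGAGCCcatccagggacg
All 7 genes held the motif, which was required to set the strand. Its presence could therefore not separate the 2 genes under a peak from the other 5. The asparagine genes TRN-GTT4-1 and TRN-GTT6-1 differed at 3 of 74 bases. A run of 4 T bases followed each gene in the window, 4 bases after TRI-TAT2-2 and 44 bases after TRI-AAT8-1.

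A gene was counted as having a peak when any base of the peak lay within 1 kb of the gene record. PARP1 peaks were found at 43 of the 239 genes, a share of 18.0% (13.3% to 23.5%), and PRMT6 peaks at 15, a share of 6.28% (3.55% to 10.1%). Both lists had a peak at 13 genes, 5.44% (2.93% to 9.12%). The background over all 429 placed nuclear tRNA genes was 27.7% for PARP1, 15.2% for PRMT6 and 13.8% for both. The tRNA genes of chromosomes 1 and 6 therefore lay below the tRNA genes as a whole in each count.

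Compared with the 190 tRNA genes of the other chromosomes, the shares on chromosomes 1 and 6 were lower for each antibody. On the other chromosomes 76 genes had a PARP1 peak, 40.0% (33.0% to 47.3%), 50 had a PRMT6 peak, 26.3% (20.2% to 33.2%), and 46 had both, 24.2% (18.3% to 30.9%). None of these intervals overlapped its counterpart on chromosomes 1 and 6. The other chromosomes were not alike. On chromosome 17, 13 of 33 tRNA genes had a PARP1 peak and 13 had a PRMT6 peak, and on chromosome 7 a PARP1 peak was at 1 gene of 22 and a PRMT6 peak at 1.

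Protein-coding genes gave a further point of comparison. Of 19708 5′ ends of coding genes, 20.0% had a PARP1 peak and 16.4% had a PRMT6 peak within 1 kb, and 12% had both. The PARP1 share of the tRNA genes on chromosomes 1 and 6 was close to this level, since its interval held the value for coding genes. Their PRMT6 share lay below it. Other small RNA genes differed among themselves, with PARP1 peaks at 23.5% of 149 snRNA genes, 3.10% of 1193 snoRNA genes and 4.13% of 1913 miRNA genes.

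**Figure D1:**
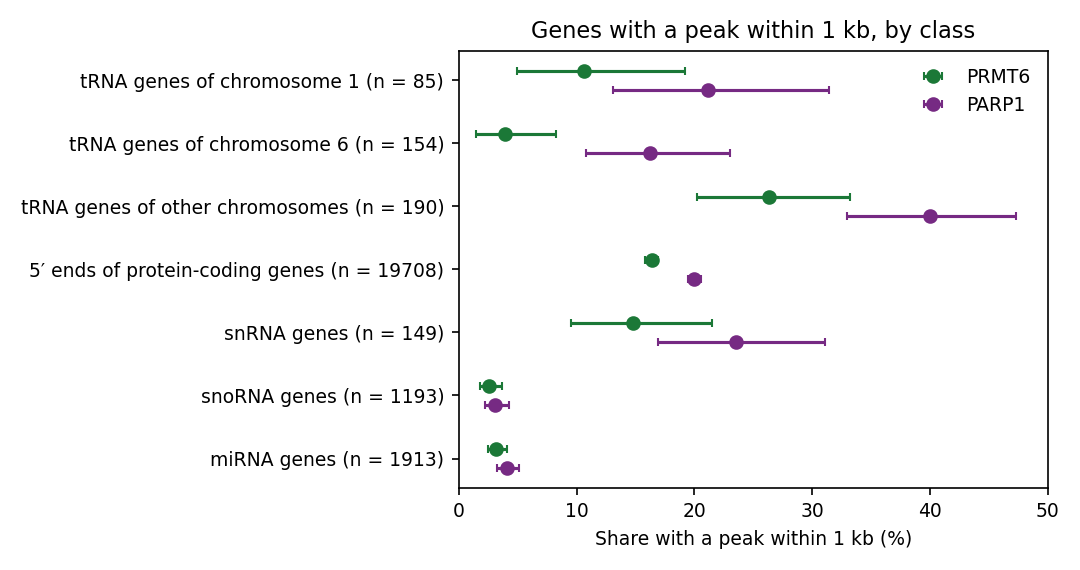
Share of genes with a peak within 1 kb (percent, horizontal axis) for PRMT6 and PARP1 in each class of gene, with 95% exact binomial intervals as bars. The PARP1 share was 21.2% for chromosome 1 and 16.2% for chromosome 6, against 40.0% for tRNA genes of other chromosomes.

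Nearness to a coding promoter differed between the chromosomes. Only 7 of the 239 genes (2.93%) had a coding 5′ end within 1 kb, against 45 of 190 (23.7%) on the other chromosomes. Among these 7, 4 had a PRMT6 peak and 4 had a PARP1 peak. Away from coding promoters the difference was still present. Of the genes more than 1 kb from a coding 5′ end, 16.8% (12.2% to 22.3%, n = 232) had a PARP1 peak on chromosomes 1 and 6 and 34.5% (26.8% to 42.8%, n = 145) elsewhere. For PRMT6 the shares were 4.74% (2.39% to 8.33%) and 20.7% (14.4% to 28.2%). With neighbours within 2 kb merged into 1 locus, PARP1 peaks stood at 17.6% of 187 loci (12.5% to 23.9%) and at 37.7% of 138 loci elsewhere (29.6% to 46.3%).

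The 2 lists were unequal at these genes. Of the 15 genes with a PRMT6 peak, 13 also had a PARP1 peak (86.7%, 59.5% to 98.3%), whereas of the 43 genes with a PARP1 peak 13 had a PRMT6 peak (30.2%, 17.2% to 46.1%). In all, 30 genes had only a PARP1 peak, 2 had only a PRMT6 peak and 194 had neither. Counted by peak, 11 PRMT6 peaks and 35 PARP1 peaks served the 45 genes. A shared base with a PARP1 peak was found for 8 of these 11 PRMT6 peaks (72.7%, 39.0% to 94.0%), and over the whole PRMT6 list for 46.4%. In the other direction, 8 of the 35 PARP1 peaks shared a base with PRMT6 (22.9%, 10.4% to 40.1%), and over the whole PARP1 list 36.4% did. Both intervals counted by peak held the value of the whole list. Counted by gene, the other chromosomes had both peaks at 46 of 76 tRNA genes with a PARP1 peak and at 46 of 50 with a PRMT6 peak. Coding 5′ ends had both at 2374 of 3948 and at 2374 of 3224. The shares among genes with a PARP1 peak lay above the upper limit of 46.1% found here. Those among genes with a PRMT6 peak lay within 59.5% to 98.3%.

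Distances of up to 1 kb describe genes chosen by that limit, and genes that share a peak are each counted. A PARP1 peak overlapped the tRNA gene itself at 23 genes, lay 1 to 500 bp away at 14 and 501 to 1000 bp away at 6. From the centre of the gene to the centre of the peak the median distance was 150 bp, and it was within 250 bp at 27 of the 43 genes. A PRMT6 peak overlapped the gene at 7 of 15 genes, with a median distance between centres of 338 bp. Farther out, 52 genes (21.8%) had their nearest PARP1 peak 3001 to 10000 bp away, against 18 genes (7.53%) for PRMT6. For tRNA genes of other chromosomes these shares were 6.32% and 6.84%, and for coding 5′ ends 6.92% and 5.77%. The median distance from a gene to the nearest peak was 14891 bp for PARP1 and 95801 bp for PRMT6. It was 7525 and 27121 bp for tRNA genes of other chromosomes, and 42208 and 55148 bp for coding 5′ ends.

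**Figure D2:**
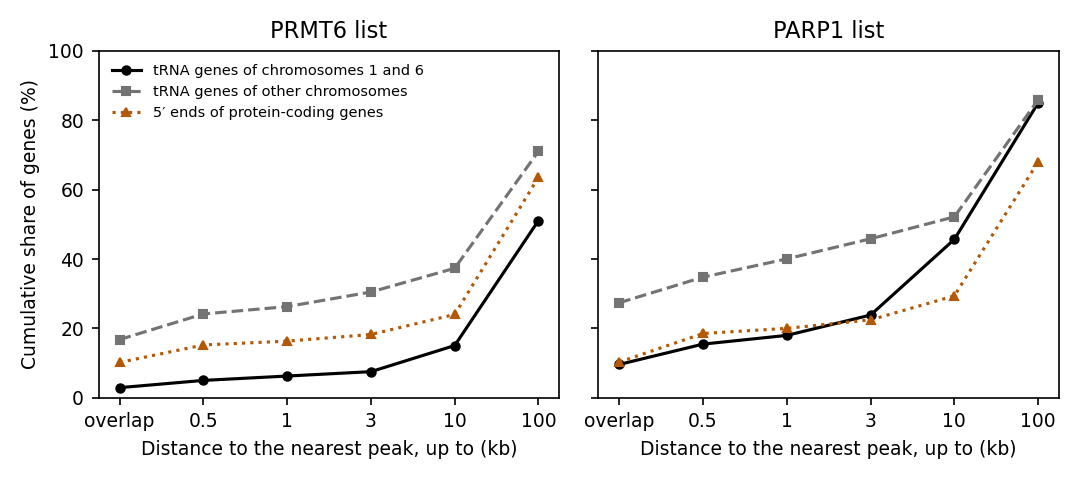
Cumulative share of genes (percent, vertical axis) with the nearest peak overlapping the gene or within the distance on the horizontal axis, which is drawn in unequal steps, for tRNA genes of chromosomes 1 and 6, tRNA genes of other chromosomes and 5′ ends of coding genes. PARP1 peaks overlapped 9.62% of the tRNA genes of chromosomes 1 and 6, 27.4% of those of other chromosomes and 10.3% of coding 5′ ends.

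The peaks at these genes had middling scores. Scores of different libraries cannot be compared, so each peak is given by its rank and by its percentile, the share of its own list with a lower score. The 35 PARP1 peaks had a median percentile of 51.1 (95% interval of the median 44.2 to 69.1) and ran from 2.60 to 98.8. The 11 PRMT6 peaks had a median percentile of 57.3 (26.4 to 68.9) and ran from 1.90 to 84.9. No peak of either kind was among the best 100 of its list. The 23 PARP1 peaks that overlapped a tRNA gene had a median percentile of 64.3 (48.7 to 78.8). On chromosome 1 the median was 72.3 (44.7 to 81.2) for 12 PARP1 peaks, and on chromosome 6 it was 51.1 (37.8 to 65.6) for 23. These 2 intervals overlapped. Peaks of exactly the smallest width of the list, 288 bp for PRMT6 and 200 bp for PARP1, made up 54.5% and 28.6% of the peaks at these genes, and 53.1% and 30.1% of the whole lists.

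The chromosomes were then compared with each other. On chromosome 1, 18 of 85 genes had a PARP1 peak (21.2%, 13.1% to 31.4%) and 9 had a PRMT6 peak (10.6%, 4.96% to 19.2%). On chromosome 6, 25 of 154 genes had a PARP1 peak (16.2%, 10.8% to 23.0%) and 6 had a PRMT6 peak (3.90%, 1.44% to 8.29%). For PARP1 the difference, chromosome 6 minus chromosome 1, was -4.94 percentage points, and its 95% Newcombe interval ran from -16.0 to 4.95. For PRMT6 it was -6.69 points (-15.3 to -0.132). Once genes within 2 kb were merged into 1 locus, the PRMT6 interval held 0 (-6.06 points, -16.5 to 1.21).

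Most of the genes, 208 of 239, lay in 7 clusters, defined as runs of at least 5 tRNA genes with gaps of at most 500 kb. PARP1 peaks were at 34 of these 208 genes (16.3%, 11.6% to 22.1%) and at 9 of the 31 genes outside clusters (29.0%, 14.2% to 48.0%). PRMT6 peaks were at 11 (5.29%, 2.67% to 9.27%) and at 4 (12.9%, 3.63% to 29.8%). The intervals overlapped for both antibodies. A PARP1 peak was at 18.6% (13.2% to 25.2%) of the 177 genes with another tRNA gene within 10 kb and at 16.1% (8.02% to 27.7%) of the other 62.

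The main cluster of chromosome 6, from 26.3 to 29.0 Mb, held 144 of the genes. PARP1 peaks were at 24 of them (16.7%, 11.0% to 23.8%), served by 21 distinct peaks, and PRMT6 peaks at 6 (4.17%, 1.54% to 8.85%), served by 5. Runs with gaps of at most 100 kb split the cluster into 5 groups of at least 5 genes. From the 26.3 Mb end onward, PARP1 peaks were at 4 of 13, 5 of 31, 3 of 21, 6 of 33 and 5 of 43 genes, so each group had some. PRMT6 peaks were at 1, 2, 2, 0 and 1 genes of the same groups. The PARP1 peak left over was at the serine gene TRS-GCT5-1, between groups. The 33 genes from 27.5 to 27.8 Mb thus had PARP1 peaks at 6 genes and no PRMT6 peak, a count of 0 that allows a PRMT6 share of up to 10.6%.

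Within the main cluster of chromosome 6, the share of PARP1 peaks near tRNA genes was larger than the share of sequence near them. The cluster span of 2.70 Mb held 40 PARP1 peaks, of which 21 lay within 1 kb of a tRNA gene (52.5%, 36.1% to 68.5%), 9 lay near a coding 5′ end only and 10 near neither. Sequence within 1 kb of a tRNA gene made up 10.0% of the span. Of 14 PRMT6 peaks in the span, 5 lay within 1 kb of a tRNA gene (35.7%, 12.8% to 64.9%). Sequence within 1 kb of a PARP1 peak made up 3.19% of the span, against 0.801% of chromosome 6 from its first to its last gene record. For PRMT6 the values were 1.20% and 0.654%.

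The small cluster of chromosome 6 from 57.8 to 57.9 Mb had 6 genes and no peak of either list. Outside both clusters, 1 of 4 genes of chromosome 6 had a PARP1 peak, TRL-TAA1-1, with a peak in the lowest part of the list (rank 10999).

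On chromosome 1 the clusters differed in whether they had any peak, although each is small. The 8 genes from 16.5 to 16.9 Mb had 2 PARP1 peaks and no PRMT6 peak. The 6 genes from 145.1 to 145.5 Mb and the 7 genes from 148.0 to 148.5 Mb had none of either list. Between them, the 5 genes from 146.0 to 146.4 Mb had peaks of both lists at 2. With so few genes, a count of 0 still allows shares of up to 45.9% and 41.0%. The 27 genes of chromosome 1 outside clusters had PARP1 peaks at 8 and PRMT6 peaks at 4 of these 8.

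The largest cluster of chromosome 1, from 161.4 to 161.6 Mb, lies beside the Fc receptor genes. Part of it, from TRG-TCC4-1 to TRL-CAG1-5, is a tandem repeat of glycine, leucine, aspartate and glutamate tRNA genes. The cluster held 32 genes, 28 of which share their isodecoder number with another gene. PARP1 peaks were at 6 and PRMT6 peaks at 3. The genes with a peak stood toward the ends of the cluster. TRG-TCC4-1, TRD-GTC2-1 and TRL-CAG1-1 lay in the repeat, and the other genes with a peak lay beyond it. Counted along the chromosome, genes 7 to 27 of the cluster, 21 in a row, had no peak of either list. The nearest PARP1 peak to any of them was 2571 bp away, and all but the last, TRG-GCC4-1, lay in the repeat. Of these 21, 20 share an isodecoder number, and of the 7 genes with a peak 5 do. Such a run was not particular to this cluster. In the main cluster of chromosome 6, genes 58 to 80, 23 in a row, also had no peak of either list, and 7 of these 23 share an isodecoder number. Runs of 18, 11 and 12 genes without a peak stood elsewhere in the same cluster. In the same order, 10, 1 and 11 of their genes share an isodecoder number. How reads that match several copies were placed is not stated, and its part in these patterns was not tested. At the start of the cluster, TRG-TCC4-1, TRD-GTC2-1 and TRL-CAG1-1 shared 1 PARP1 peak (chr1:161440423-161440733, rank 2772). At its far end TRL-CAA6-1 had a PARP1 peak (rank 2257) 327 bp away.

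**Figure D3:**
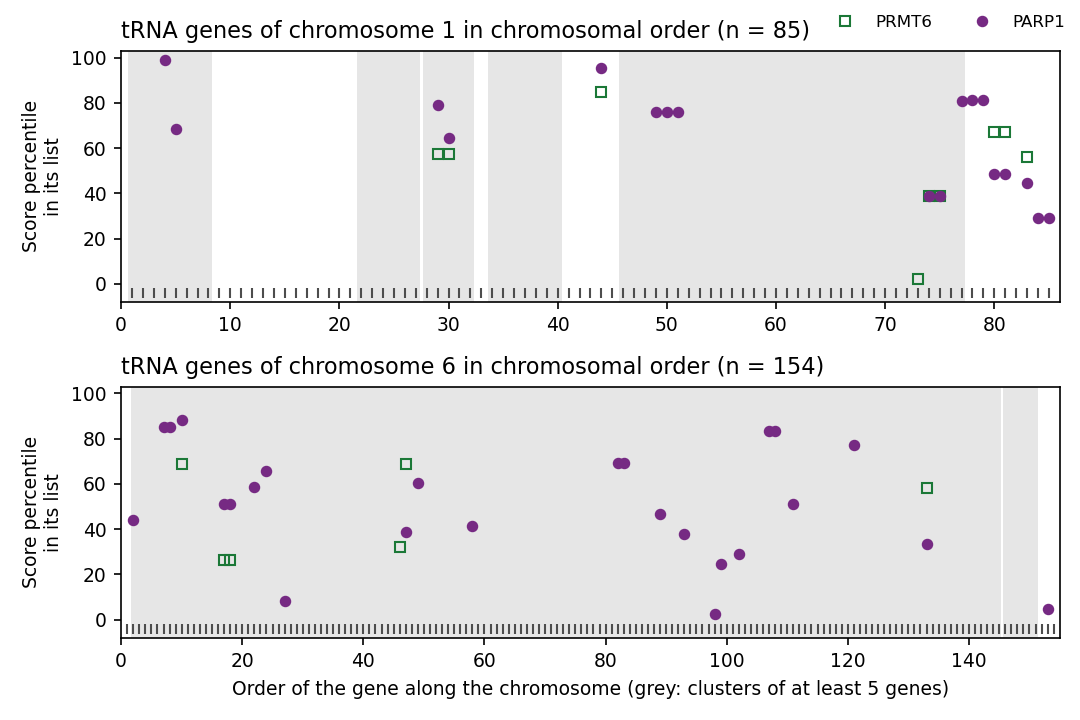
Score percentile of the peak at each tRNA gene (vertical axis) by the order of the genes along chromosome 1 (upper panel, n = 85) and chromosome 6 (lower panel, n = 154), with ticks for all genes and grey for clusters of at least 5 genes. On chromosome 1, 21 neighbouring genes inside the cluster from 161.4 to 161.6 Mb have no point, and on chromosome 6 the longest stretch of the main cluster without a point is 23 genes.

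By amino acid, PARP1 peaks were found for 16 of 21 kinds of tRNA and PRMT6 peaks for 11, with methionine counted as 2 kinds. The highest counts for PARP1 were 5 of 11 lysine genes (45.5%, 16.7% to 76.6%), 5 of 19 glycine genes and 5 of 19 leucine genes (26.3% each, 9.15% to 51.2%), and 4 of 7 initiator methionine genes (57.1%, 18.4% to 90.1%). For PRMT6 they were 3 of 19 glycine genes, 2 of 11 lysine genes and 2 of 13 arginine genes. Every interval was wide and all intervals of an antibody overlapped, so no order of the amino acids was read from these shares.

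The initiator methionine genes are 7 of the 8 identical copies in the genome. TRX-CAT1-1, TRX-CAT1-2, TRX-CAT1-3 and TRX-CAT1-6 had a PARP1 peak, and TRX-CAT1-1 alone had a PRMT6 peak. At TRX-CAT1-2 the PARP1 peak lay 691 bp away, over the start of the histone gene H4C8. The nearest PARP1 peaks to TRX-CAT1-4, TRX-CAT1-5 and TRX-CAT1-7 were 7128, 46382 and 8976 bp away. None of the 8 elongator methionine genes had a peak of either list (upper limit 36.9%), and the nearest PARP1 peak to any of them was 3243 bp away. The intervals of initiator and elongator genes overlapped. On the other chromosomes 1 of 3 elongator genes and the 1 initiator gene had a PARP1 peak.

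Asparagine was the largest kind without a peak. None of its 17 genes, all on chromosome 1, had a peak of either list (upper limit 19.5%), and 9 of them had a PARP1 peak within 10 kb, the nearest at 5985 bp. On the other chromosomes 3 of 4 asparagine genes had a PARP1 peak, beside 40.0% of all 190 tRNA genes there. The PARP1 share of 18.0% over all 239 genes lay within the asparagine interval. The 6 phenylalanine genes (upper limit 45.9%), the 2 tryptophan genes and the single cysteine gene had none either. Elsewhere PARP1 peaks were at 3 of 5 phenylalanine, 1 of 5 tryptophan and 3 of 28 cysteine genes. Alanine, the kind with the most genes, had PARP1 peaks at 3 of 30 (10.0%, 2.11% to 26.5%) and a PRMT6 peak at 1, and on the other chromosomes 5 of 7 alanine genes had a PARP1 peak. Serine genes had PARP1 peaks at 2 of 17, glutamine genes at 3 of 16, isoleucine genes at 2 of 15, valine genes at 1 of 16 and glutamate genes at 1 of 11. PRMT6 peaks were at 1 of these isoleucine genes and 1 of these valine genes, and at none of the serine, glutamine and glutamate genes. At 1 of 19 leucine genes and 1 of 7 initiator methionine genes a PRMT6 peak was also listed.

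The remaining kinds had few genes. PARP1 peaks were at 3 of 13 arginine, 2 of 10 threonine, 1 of 8 aspartate, 2 of 5 histidine, 3 of 4 proline and 1 of 4 tyrosine genes. The PARP1 peaks of proline came from 2 places, since TRP-CGG1-1 and TRP-AGG2-1 shared 1 peak (rank 2175), and TRP-AGG2-2 missed the limit with a nearest peak at 1178 bp. Of these kinds arginine had PRMT6 peaks at 2 genes, and threonine, histidine and proline at 1 each.

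**Figure D4:**
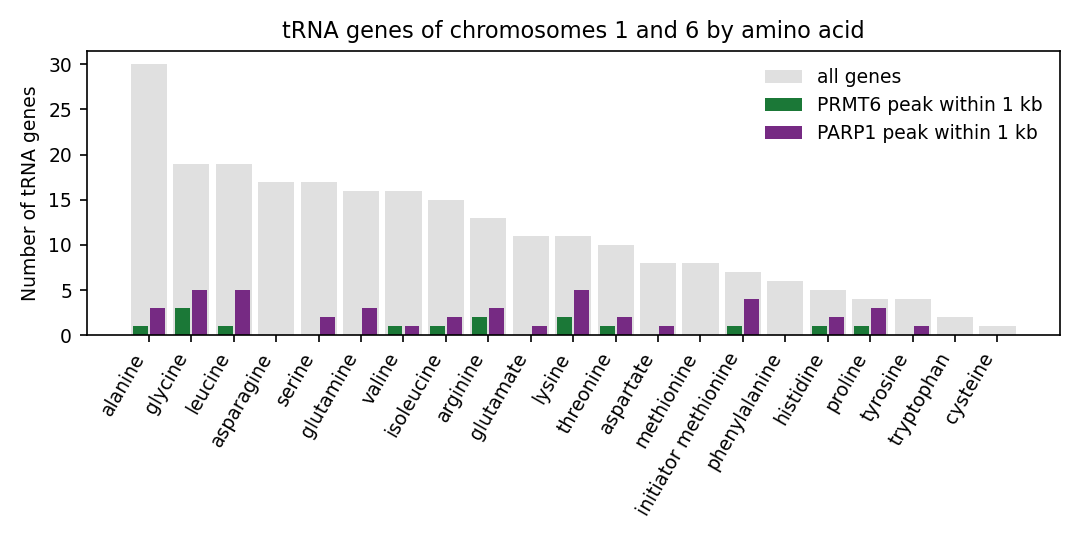
Number of tRNA genes of chromosomes 1 and 6 with a peak within 1 kb, of the genes of each kind, for PRMT6 and PARP1. Lysine, glycine and leucine have 5 genes each with a PARP1 peak, and the 17 asparagine genes have none.

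Genes that make the same mature tRNA were then compared, beside a PARP1 share of 18.0% over all 239 genes. Of the 239 genes, 118 share an isodecoder number with another nuclear gene. PARP1 peaks were at 22 of these (18.6%, 12.1% to 26.9%) and at 21 of the 121 others (17.4%, 11.1% to 25.3%). PRMT6 peaks were at 12 (10.2%, 5.37% to 17.1%) and at 3 (2.48%, 0.514% to 7.07%). For PARP1 the shares were close, and for PRMT6 the intervals overlapped. Of the 6 isodecoder families with at least 5 members here, 5 had a PARP1 peak at some of their genes, and none had one at all of them. The TRG-TCC2 glycine family had PARP1 and PRMT6 peaks at 2 of 6 genes, TRL-CAG1 had PARP1 peaks at 2 of 7 and TRH-GTG1 at 2 of 5. TRE-CTC1, a glutamate family of 7, had no peak, with the nearest PARP1 peak at 1296 bp.

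Among loci with a peak of both lists, the best ranks were at TRX-CAT1-1 (chr1:153671250-153671321), an initiator methionine gene outside the clusters. It lay 257 bp from the 5′ end of ILF2, which encodes a subunit of a nuclear RNA-binding complex. The PRMT6 peak (chr1:153670978-153671418) had a score of 9.17 and rank 1358, and the PARP1 peak (chr1:153670949-153671344) had a score of 16.15 and rank 529. Both peaks covered the tRNA gene whole, and signal of the tRNA gene and of the ILF2 promoter cannot be told apart here.

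At the other loci with a peak of both lists, most coding promoters were far away. TRR-TCG2-1 (chr6:26322818-26322890), an arginine gene 37284 bp from a coding 5′ end, was overlapped by a PARP1 peak of rank 1337, and a PRMT6 peak of rank 2783 began 70 bp from the gene. TRP-CGG2-1 (chr6:27091742-27091813) was overlapped by a PRMT6 peak of rank 2783 and a PARP1 peak of rank 7034. The lysine genes TRK-TTT3-1 (chr1:204506527-204506599) and TRK-TTT3-2 (chr1:204507030-204507102), which make the same mature tRNA, shared 1 PRMT6 peak of rank 3000 that reached over both, and a PARP1 peak of rank 5956 that overlapped TRK-TTT3-1 only. The nearer of them lay 9304 bp from the start of MDM4, which encodes a regulator of p53.

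In the cluster of chromosome 1 from 146.0 to 146.4 Mb, the glycine gene TRG-TCC2-1 (chr1:146037061-146037132) and the histidine gene TRH-GTG1-1 (chr1:146038044-146038115) each had a PARP1 peak of its own over the gene, of ranks 2465 and 4158. A single PRMT6 peak of rank 3879 overlapped TRH-GTG1-1 and lay 707 bp from TRG-TCC2-1. In the cluster from 161.4 to 161.6 Mb, TRG-TCC2-6 was overlapped by a PRMT6 peak of rank 5567 and a PARP1 peak of rank 7034. Its neighbour TRL-CAG1-6 lay 539 and 473 bp from the same peaks, and both genes lay beyond the tandem repeat.

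At 3 further places at least 1 of the lists had its peak beside the tRNA gene and not over it. TRT-TGT2-1 (chr1:222465005-222465077), a threonine gene, lay 310 bp from a PRMT6 peak (rank 3935) and 436 bp from a PARP1 peak (rank 6407). TRA-AGC2-1 (chr6:28838444-28838515), an alanine gene inside the lncRNA record LOC124901296, lay 310 bp from a PRMT6 peak (rank 3713) and 464 bp from a PARP1 peak (rank 7686). TRR-ACG1-2 and TRV-CAC1-6 lay 796 and 240 bp from the 5′ end of HMGN4, a nucleosome-binding protein gene. A PARP1 peak (rank 5671) overlapped TRR-ACG1-2, a separate PRMT6 peak (rank 6633) lay 180 bp from TRV-CAC1-6, and these 2 peaks did not overlap. The PRMT6 peak covered the 5′ end of HMGN4, and the PARP1 peak lay 580 bp from it. Signal of these tRNA genes and of the HMGN4 promoter cannot be told apart here.

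Of the 30 genes with only a PARP1 peak, 15 were overlapped by it and 1 lay within 1 kb of a coding 5′ end. The best ranked was TRG-CCC4-1 (chr1:16678271-16678341), a glycine gene 5765 bp from the nearest coding 5′ end. Its PARP1 peak (chr1:16677968-16678354) had a score of 23.64 and rank 136, the best of any tRNA gene on these chromosomes, and the nearest PRMT6 peak was 217840 bp away. TRG-CCC5-1 in the same cluster was overlapped by a PARP1 peak of rank 3641. On chromosome 6, TRS-TGA3-1 and TRX-CAT1-3 shared a PARP1 peak of rank 1737, with the nearest PRMT6 peak 9765 bp from TRX-CAT1-3. TRQ-TTG2-1, a glutamine gene inside the record of SCAND3, and TRR-TCG5-1, an arginine gene, each had a PARP1 peak of rank 1925, and their nearest PRMT6 peaks were 234782 and 188517 bp away.

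Only 2 genes had a PRMT6 peak without a PARP1 peak. TRI-TAT2-2, the isoleucine gene shown above, was covered whole by a PRMT6 peak of rank 5718, inside the lncRNA record LINC00240. The nearest PARP1 peak was 71312 bp away. The gene lay in the RefSeq promoter window of LARRPM, and signal of the tRNA gene and of that promoter cannot be told apart here. TRG-GCC2-1, a glycine gene of the chromosome 1 cluster from 161.4 to 161.6 Mb, lay 195 bp from a PRMT6 peak of rank 8745. That peak is near the start of HSPA6, a heat shock protein gene 623 bp from the tRNA gene.

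For TRI-TAT2-2 and TRI-AAT8-1 the windows also held most of the peak, which shows where the gene sits in it. These are the promoter windows of LARRPM and LOC124901292, and signal of tRNA gene and promoter cannot be told apart at either. The PRMT6 peak at TRI-TAT2-2 was listed as 27020239 to 27020527, of which 271 bases (chr6:27020257-27020527) were read. The PARP1 peak at TRI-AAT8-1 was listed as 27668622 to 27668864, and the 241 bases printed (chr6:27668583-27668823) run from the start of the gene to the end of the window. The tRNA gene is in capitals.
TRI-TAT2-2: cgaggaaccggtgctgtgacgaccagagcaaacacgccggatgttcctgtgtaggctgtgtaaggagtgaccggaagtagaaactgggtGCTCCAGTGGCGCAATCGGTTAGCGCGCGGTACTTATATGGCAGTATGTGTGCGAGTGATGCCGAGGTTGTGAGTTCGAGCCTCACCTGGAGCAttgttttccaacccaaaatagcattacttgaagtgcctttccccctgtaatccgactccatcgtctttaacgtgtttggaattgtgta
TRI-AAT8-1: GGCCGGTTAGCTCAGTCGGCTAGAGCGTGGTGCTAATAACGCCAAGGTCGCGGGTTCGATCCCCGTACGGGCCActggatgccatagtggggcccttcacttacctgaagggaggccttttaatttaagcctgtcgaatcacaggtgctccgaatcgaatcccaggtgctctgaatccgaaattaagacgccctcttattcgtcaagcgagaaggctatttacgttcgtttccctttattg
The gene lay in the middle of the PRMT6 peak, while the PARP1 peak began inside TRI-AAT8-1 and reached downstream of it.

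Genes for the tRNA machinery were counted by a peak within 1 kb of the 5′ end. Among 18 RNA polymerase III subunits, 8 had a PARP1 peak (44.4%, 21.5% to 69.2%), 6 had a PRMT6 peak (33.3%, 13.3% to 59.0%) and 4 had both, POLR3C, POLR3E, POLR1D and POLR2E. The 18 include subunits with POLR1 and POLR2 symbols. Among 11 genes of TFIIIC, TFIIIB and their repressor MAF1, 6 had a PARP1 peak and 4 had both, GTF3C1, GTF3C2, GTF3C5 and MAF1. The TFIIIB genes BDP1 and TBP had a PARP1 peak only. Of 23 aminoacyl-tRNA synthetases and their partners, which charge tRNAs with amino acids, 10 had a PARP1 peak (43.5%, 23.2% to 65.5%) and 10 had a PRMT6 peak, 6 of them both. Of 17 tRNA processing genes, 6 had a PARP1 peak and 4 had a PRMT6 peak, with both at RPP40, a subunit of RNase P, and TSEN34, a subunit of the splicing endonuclease. The PRMT6 share of all coding genes, 16.4%, lay within the interval of each list but that of the synthetases. The PARP1 share of all coding genes, 20.0%, lay within the interval of the processing list and below those of the other lists. These lists were not compared with other genes by a test.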

How the data were processed

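Peak lists of 2 libraries were analysed, 1 per antibody, grouped by the antibody in the labels. The labels name CUT&Tag but describe adaptor ligation to immunoprecipitated DNA, so the library chemistry is uncertain. Per the labels, the processing notes name CASAVA 1.4, Bowtie 0.12.8, MACS, MACS2 and the build hg19. The deposited scores are the −log10 of p-values from the authors' peak caller, run on each library. Control libraries, thresholds and the treatment of duplicate and multiply mapped reads are not given in the sources used here. The listed positions match GRCh38, since 30.1% of PRMT6 and 29.5% of PARP1 peaks lay within 1 kb of a coding 5′ end with RefSeq GRCh38.p14 records, against 4.04% and 3.94% with GRCh37 genes, and GRCh38 was used.

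Distances ran from the RefSeq gene record to the nearest base of a peak and were computed with pandas 2.3.3 and numpy 2.4.6 under Python 3.11.15. Intervals came from scipy 1.17.1 and statsmodels 0.14.6, and plots from matplotlib 3.10.9. RefSeq records carry no strand, which was taken from the RefSeq promoter windows or GENCODE for 19708 of 19866 coding genes. The search was run on simulated data, where 60 placed peaks lay within 1 kb of 45 genes and 45 were found. The expected genes were set by the same distance rule, so this checked the code only, not the build or the gene positions. Named loci are up to 12 with peaks of both lists, by mean rank and 1 per pair of peaks, with the neighbours that share their peaks, and up to 5 with the best peak of 1 list only, beside every amino acid and cluster. Other genes named (further copies, neighbours and those with sequence) were chosen after their values were seen. The genes, lists and comparisons were chosen with earlier results of these data known. Alternatives covered the distance, the score, peak width, list length, coding promoters, merged loci, clusters and gene copies.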

Additional observations from a re-analysis of the deposited data

How the results depend on the processing

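Among the main values only the differences of chromosome 6 minus chromosome 1 have a direction, and both stayed negative in every setting. For PARP1 the reported interval held 0 (-16.0 to 4.95). Shares and medians cannot reverse, and cutting the PARP1 list could not change the PRMT6 values. Of 77 recomputed main values over 11 settings, 67 stayed within the interval of the reported value. With the peak required to overlap the gene, the shares were 2.93% for PRMT6, 9.62% for PARP1 and 2.09% for both, and within 3 kb the PARP1 share was 23.8%. These follow from the narrower and wider distance. With the higher-scoring 50% of each list, the PARP1 share was 10.5%, the share of both 1.67% and the median PARP1 percentile 76.7, which follows from removing the lower scores. When peaks of the smallest width were left out, the share for PRMT6 was 3.35%, and on the other chromosomes it was 22.6%. Without genes that share an isodecoder number, a setting chosen after seeing the data like those on provisional symbols and scaffold records, the PRMT6 share and the share of both were 2.48%, and the PRMT6 share was 23.3% on the other chromosomes. The cause was not tested. The PRMT6 difference of chromosome 6 minus chromosome 1 had an interval that held 0 when the peak had to overlap the gene (-4.58 points), within 500 bp (-4.99), with the higher-scoring 50% (-5.11), with merged loci (-6.06) and without shared isodecoder numbers (-0.878). Of 112 recomputed shares by amino acid or cluster, 9 moved, 8 of them to 0, all with the higher-scoring 50% of the lists. The number of clusters was 7 with a gap of 100 kb, as reported with 500 kb, and 5 with a gap of 1 Mb. No paired analysis was possible because there is 1 library per antibody, and no replicate could be left out. Not run were the settings on identical sequence windows, since sequence was at hand for 7 of 239 genes, and on mitochondrial or undetermined symbols, which no gene has. Counts of few genes limit every share by amino acid and by small cluster.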
